A study of Mus musculus with 6 samples.

Results

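The genes described here encode proteins that slide and evict nucleosomes, write or erase methyl groups, or erase acetyl groups, on histones and other proteins. They were taken by name: every probe of the array whose gene name begins with SMARC, CHD, KDM, JMJD, JARID1, HDAC, SIRT, SETD or MLL, followed for the numbered families by the number of a known member. This gave 139 probes for 71 genes, out of 45281 probes and 30774 gene names on the Illumina MouseWG-6 v2.0 array. *Hdac1* and the names that begin with KDM were not analysed here, since no probe carried them, although the KDM demethylases were measured under their older JMJD and JARID1 names. A probe was tested when its detection score, the share of the array's negative controls that lie below its signal, was above 0.99 on at least 3 of the 6 arrays. That left 93 probes for 62 genes, or 66.9% of the chromatin probes, beside 32.3% of all probes on the array.

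The question behind the arrays was which transcripts change when a single miRNA is given back to cells that make none. The cells were mouse embryonic stem (ES) cells of strain 129/SvEv in which both *Ago2* and *Dicer1* were deleted (Ago2Δ/Δ;Dicer1Δ/Δ) and which carried a myc-tagged Ago2 transgene under the CAG promoter. Both groups therefore lacked *Dicer1* and had Ago2 from the transgene alone, and the line was grown from picked colonies. Cells cultured without feeders, with 15% serum and LIF at 2000 U/ml, received 300 pmol of miR-294 mimic or of cel-239b, a *C. elegans* miRNA used as the control, with 1 µg of a plasmid that encodes GFP, and those that glowed green were sorted after 24 hr. There were 3 arrays of each group. The labels call these replicates, and by the study's methods the cells were transfected 3 times with each miRNA. Separate starting cultures are not stated, so the *p*-values measure the spread between these transfections.

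Chromatin regulators of these families act in large complexes. SWI/SNF (BAF), ISWI, CHD and INO80 remodelers use an ATPase of the SNF2 family to move nucleosomes, JmjC and LSD1 demethylases remove methyl groups from histone lysines, SET-domain enzymes of the SETD and MLL families add them, and the HDACs and the NAD-dependent sirtuins remove acetyl groups. ES cells are known for a BAF complex of their own, esBAF, which is built on Smarca4 (Brg1), Smarcc1 and Smarcd1 and lacks Smarca2 (Brm), Smarcc2 and Smarcd3. A miRNA directs Argonaute to mRNAs that pair with its seed, bases 2 to 8 from its 5′ end.

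The miRNA that was added belongs to a cluster on mouse chromosome 7 that is active in ES cells. Its mature sequence is shown because the groups differed in whether they received this miRNA or cel-239b. Relatives with and without the same seed are shown beside it, all from RefSeq (GRCm38.p6). Capitals mark the seed.
mmu-miR-294-3p: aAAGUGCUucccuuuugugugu
mmu-miR-291a-3p: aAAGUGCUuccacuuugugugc
mmu-miR-295-3p: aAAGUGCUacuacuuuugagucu
mmu-miR-302b-3p: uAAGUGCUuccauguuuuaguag
mmu-miR-290a-3p: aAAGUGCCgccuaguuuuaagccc
mmu-miR-293-3p: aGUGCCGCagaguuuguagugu
miR-294 lies at chr7:3220691-3220712 on the plus strand. miR-291a, miR-295 and miR-302b share its seed, AAGUGCU, while miR-290a and miR-293 carry AAGUGCC and GUGCCGC. The sequence of an mRNA that pairs with the whole seed reads AGCACTT in DNA letters. The UTRs of the chromatin genes were not searched here.

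The arrays were alike in quality. Between 30.6% and 32.9% of probes were detected on an array, and within a group the arrays correlated at 0.995 to 0.997 over the tested probes. All 8 of the ES cell markers examined were detected, and their summed signal was 116358 to 119044 with cel-239b and 122157 to 125632 with miR-294. Of 6 feeder fibroblast markers 1 was detected on 3 or more arrays and 4 on none, with a summed signal of 335 to 339 against 378 to 400, and of 5 primitive endoderm markers 1 was detected on 3 or more arrays (426 to 438 against 555 to 579). Trophoblast markers (2 of 4 detected) summed to 318 to 332 against 417 to 446, mesoderm markers (1 of 4 detected) to 161 to 165 against 202 to 207, and ectoderm markers (1 of 3 detected) to 252 to 289 against 248 to 259. Of the ES cell markers, *Nanog* (log fold changes 0.19 and 0.62 on 2 probes), *Zfp42* (0.22) and *Esrrb* (0.34) were called higher with miR-294 and *Tdgf1* (−0.39) lower. Of the other lists, *Cdx2*, *Eomes*, *Sox7*, *T* and *Thy1* were called higher. The probes of the last 2 were detected on the 3 miR-294 arrays alone, so they could pass the filter only by being higher there. The part of these markers in the results below was not tested. In RNA from a population of cells, a change in the share of cells and a change of RNA per cell cannot be told apart. The 2 probes of *Dicer1* passed detection on every array and overlapped between the groups, and whether they lie in the deleted part is not given in the sources used here.

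miR-294 changed chromatin regulators in both directions, at about the rate of all transcripts. Of the 93 tested probes, 14 were higher and 18 were lower (limma, Benjamini-Hochberg adjusted *p* below 0.05 over all 14621 tested probes). Those shares, 15.1% and 19.4%, stand beside 16% and 16.3% of all tested probes that were called higher and lower. By gene, 10 were upregulated, 12 were downregulated and 40 were not called, against 18.1% and 19% of all 10613 tested genes that were higher and lower. The 22 called genes are read beside the 37% of all tested genes that were called in either direction, and the 32 called probes beside 32.3% of all tested probes. The log fold change is given on the log2 scale, as the mean of the miR-294 arrays less that of the cel-239b arrays. Its median was −0.02 over the chromatin probes and 0.01 over all tested probes. Of the 18 lower probes, 2 were detected with cel-239b alone and so could pass the filter only by being higher there, which left 16 of 91 (17.6%). Without the array of cel-239b replicate 2, the number of higher probes was 9, beside 11.1% of all tested probes.

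With the background correction used here, the largest increases were those of *Smarca1*, an ISWI ATPase, and *Smarcd3*, a BAF subunit, and the largest decreases those of *Smarcc2*, another BAF subunit, and *Mll5*. These 4 were also the ones that passed a 1.5-fold limit, 2 in each direction, where 2.87% of all tested probes were higher and 3.62% lower by that measure. The order depended on the treatment of low signals. On variance-stabilised signals the largest increases were those of *Sirt1* (0.44), *Smarca1* (0.40) and *Jmjd1a* (0.36), and the largest decreases those of *Mll1* (−0.50), *Jmjd2b* (−0.43) and *Hdac5* (−0.37). *Smarca1* alone passed the stricter threshold that the study used, a *B*-statistic (log odds of differential expression) above 5. Of all tested probes 1.47% passed it, 0.677% as higher and 0.793% as lower. The study took *B* from its own normalised data, so the same number need not mark the same cut here. On 47 of the 93 probes, or 50.5%, the 3 arrays of one group lay wholly above the other 3, beside 47.9% of all tested probes. With 3 arrays in a group an exact two-sided permutation test cannot give a *p* below 0.1, so single probes were tested only in the model across all probes.

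**Figure D1:**
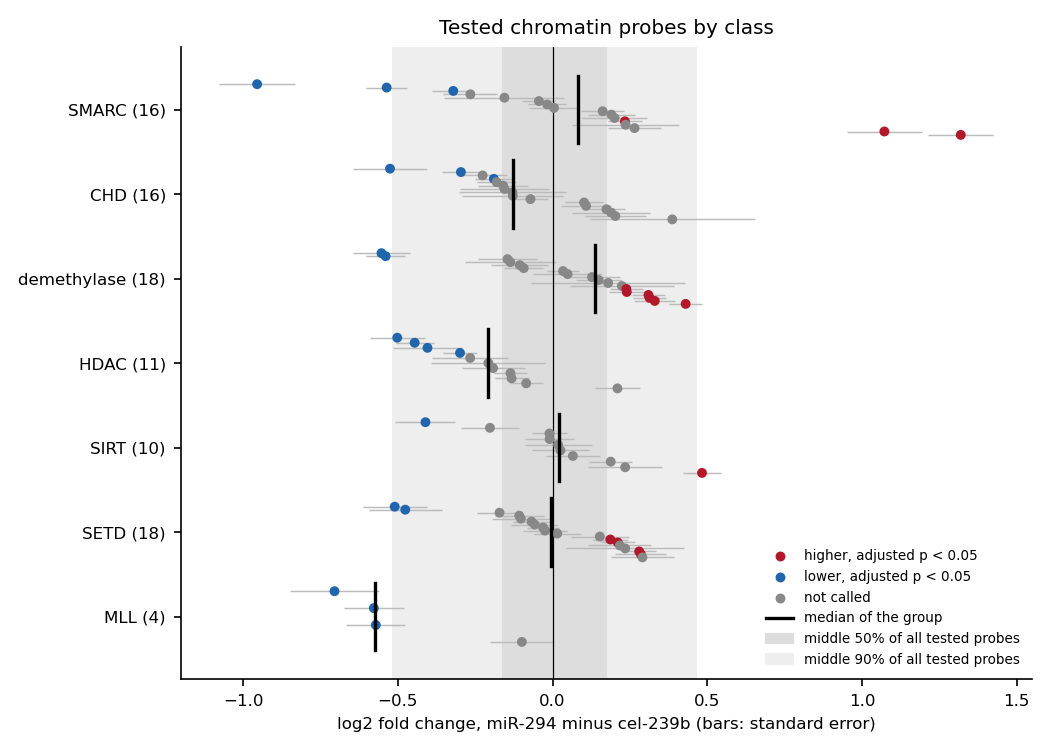
Log2 fold change (miR-294 minus cel-239b, with its standard error) of the 93 tested probes in 7 classes, coloured by call, with the class median as a black line and the middle 50% and 90% of all 14621 tested probes as grey bands. The 4 MLL probes all lie below 0 and 10 of the 11 HDAC probes do, while *Smarca1* and *Smarcd3* stand far to the right.

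The 16 tested SMARC probes, for 14 genes, included 3 higher and 3 lower, beside 16% and 16.3% of all tested probes, with a median log fold change of 0.08. *Smarca1* encodes Snf2l, an ISWI ATPase. Its signal was 6.10, 5.73 and 6.01 with cel-239b and 7.36, 7.16 and 7.27 with miR-294, on the normalised log2 scale. Before normalisation the same probe read 109.5, 96.0 and 122.2 against 191.0, 184.7 and 202.1, so the groups were far apart on the scanner scale as well. The log fold change was 1.32 ± 0.11 (SE, n = 3 in each group, adjusted *p* = 2.5e-04 by limma, *B* = 5.19). *Smarca5* (Snf2h), the other ISWI ATPase, spanned 7.72 to 7.90 with cel-239b and 7.21 to 8.07 with miR-294, and the groups overlapped (adjusted *p* = 0.57 by limma). *B* of *Smarca1* was above 5 in the full set of arrays and without cel-239b replicate 2, and fell below 5 without any other single array, while its adjusted *p* by limma was at most 0.0023 under every alternative.

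The alternative subunits of the BAF complex moved in several directions. Neither ATPase overlapped between the groups, both with the lower values under miR-294, and 1 of the 2 was called, where 23.6% of all tested probes were lower without overlap and 16.3% were called lower. *Smarca2* (Brm) read 6.76, 6.86 and 6.88 with cel-239b and 6.23, 6.27 and 6.39 with miR-294 (log fold change −0.54 ± 0.07, adjusted *p* = 0.0015 by limma), on 1 tested probe of 4. *Smarca4* (Brg1) read 8.10, 8.27 and 8.26 against 7.96, 7.80 and 8.08, without overlap between the groups, but at an adjusted *p* of 0.054 (limma) it was not called. It passed without cel-239b replicate 1 (log fold change −0.32, adjusted *p* = 0.039 by limma) and without miR-294 replicate 3 (−0.33, adjusted *p* = 0.038 by limma), and also with array weights, cyclic loess, detection on all 6 arrays, no background correction and variance-stabilised signals (adjusted *p* = 0.044, 0.040, 0.047, 0.037 and 0.034 by limma).

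The scaffold subunits Smarcc1 and Smarcc2 are close relatives. *Smarcc2*, the one that esBAF lacks, was downregulated, at 6.46, 6.38 and 6.32 with cel-239b and 5.53, 5.15 and 5.62 with miR-294. This gave a log fold change of −0.96 ± 0.12 (adjusted *p* = 0.0016 by limma), and the probe was detected on 3 cel-239b arrays and 1 miR-294 array, so that the size of the change is uncertain. *Smarcc1*, the scaffold of esBAF, was upregulated on probe 3170358, with 8.92, 8.83 and 8.81 against 9.11, 9.08 and 9.07 (log fold change 0.23, adjusted *p* = 0.018 by limma). That call was lost without cel-239b replicate 2, cel-239b replicate 3 or miR-294 replicate 1 (adjusted *p* = 0.061, 0.063 and 0.057 by limma). The second *Smarcc1* probe, 4150204, gave a similar log fold change of 0.24 with a standard error of 0.17, and its groups overlapped.

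The 3 BAF60 subunits, of which a complex holds 1, showed an increase, a decrease and a change that was not called. *Smarcd3* rose from 5.66, 5.96 and 5.60 to 6.94, 6.61 and 6.88 (log fold change 1.07 ± 0.12, adjusted *p* = 0.0010 by limma), and was detected on 2 of the cel-239b arrays and all miR-294 arrays. *Smarcd2* fell from 10.34, 10.50 and 10.53 to 10.13, 10.10 and 10.17 (log fold change −0.32 ± 0.07, adjusted *p* = 0.011 by limma). *Smarcd1*, the form known from esBAF, read 5.88, 5.79 and 6.02 against 6.04, 6.26 and 6.18, with an adjusted *p* of 0.051 by limma. It passed without cel-239b replicate 3 or miR-294 replicate 1 (log fold change 0.33 in both cases, adjusted *p* = 0.043 and 0.040 by limma), and with detection on all 6 arrays or median scaling (adjusted *p* = 0.044 and 0.039 by limma).

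*Smarcb1* and *Smarce1*, also subunits of BAF complexes, were not called. *Smarcb1* read 10.23, 10.16 and 10.19 with cel-239b and 10.48, 10.32 and 10.27 with miR-294, without overlap (log fold change 0.16, adjusted *p* = 0.12 by limma). The 2 *Smarce1* probes had log fold changes of 0.00 and −0.04, and their groups overlapped. *Smarcad1* (−0.02), *Smarcal1* (0.19) and *Smarca3* (0.20), remodelers outside these complexes, were not called either, although *Smarca3* passed without cel-239b replicate 1 (0.30, adjusted *p* = 0.039 by limma) and *Smarcal1* without miR-294 replicate 2 (0.25, adjusted *p* = 0.04997 by limma). Several of the called SMARC probes lay near the detection limit, and their sizes depended on how low signals were treated. On variance-stabilised signals the log fold change of *Smarca1* was 0.40, of *Smarcd3* 0.28, of *Smarcc2* −0.20 and of *Smarca2* −0.16, and all 4 stayed past the threshold.

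**Figure D2:**
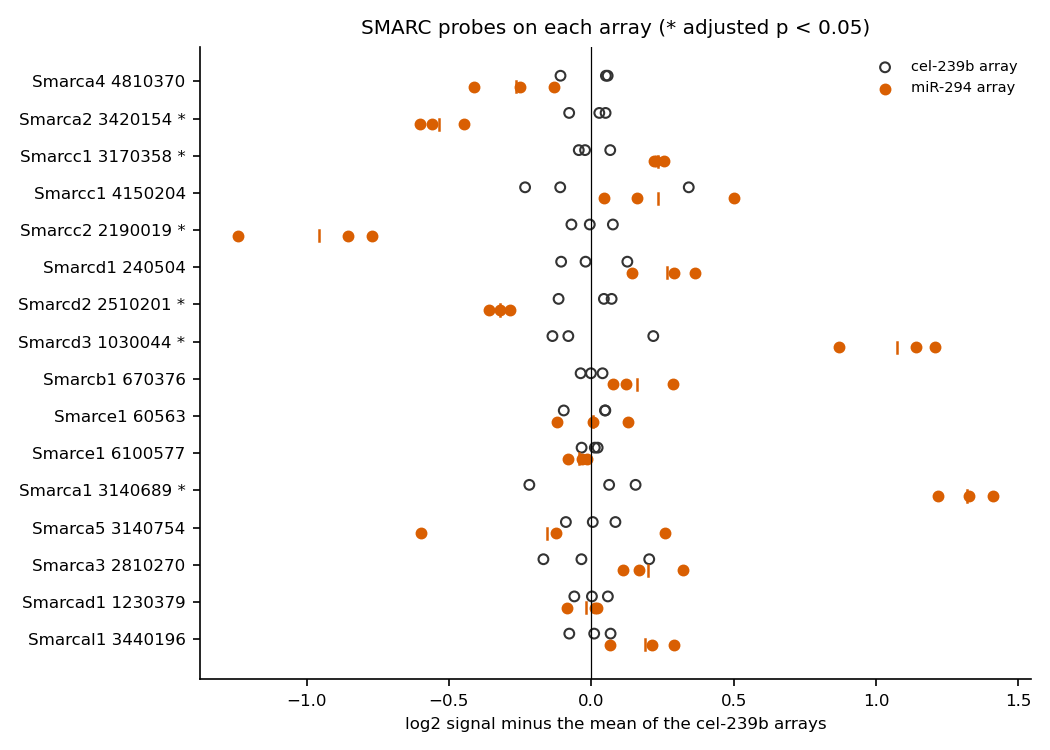
Normalised log2 signal of each SMARC probe on each array, minus the mean of the 3 cel-239b arrays (open circles, cel-239b; filled circles, miR-294; tick, miR-294 mean; asterisk, called). *Smarca1* and *Smarcd3* lie more than 0.8 to the right on every miR-294 array, *Smarcc2* lies to the left on all 3, and the arrays of *Smarca5* and *Smarce1* mix.

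The CHD remodelers, named for a chromodomain beside the SNF2 motor, had no probe called higher and 3 called lower of 16 tested, beside 16% and 16.3% of all tested probes. The 3 were all of *Chd9*, and the lower count was 1 without any one of the cel-239b arrays. Probe 6900048 fell from 8.24, 8.34 and 8.31 to 8.06, 7.93 and 8.01 (log fold change −0.30 ± 0.06, adjusted *p* = 0.011 by limma). Probe 6290731 read 8.24, 8.21 and 8.23 against 7.95, 8.07 and 8.09 (log fold change −0.19, adjusted *p* = 0.047 by limma), and lost its call without any of the arrays (adjusted *p* between 0.064 without miR-294 replicate 3 and 0.13 without miR-294 replicate 1, by limma, with 0.091, 0.10 and 0.11 without cel-239b replicates 1, 2 and 3 and 0.077 without miR-294 replicate 2). Probe 4040671 was detected on every cel-239b array and not well above background on any miR-294 array, and was at least 1.23-fold lower (adjusted *p* = 0.015 by limma). It passed the filter only through the group in which it was high, so its call is no further support for the other 2 probes. A bound of this kind sets the bright group against the lowest signal that still counted as detected on the dim arrays, and it holds for this background correction. The measured difference was 1.22-fold without background correction and 1.07-fold on variance-stabilised signals. On variance-stabilised signals the 3 log fold changes were −0.17, −0.11 and −0.10, and the last was not called (adjusted *p* = 0.053 by limma).

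The other CHD genes were not called. *Chd8* read 9.97, 10.07 and 9.97 with cel-239b and 9.74, 9.85 and 9.88 with miR-294, without overlap (adjusted *p* = 0.068 by limma), and was called without background correction and on variance-stabilised signals (adjusted *p* = 0.048 and 0.021 by limma). *Chd2* read 7.88, 7.75 and 7.80 against 7.53, 7.49 and 7.72, also without overlap (log fold change −0.23, adjusted *p* = 0.061 by limma), and passed without miR-294 replicate 3 (−0.29, adjusted *p* = 0.029 by limma). *Chd7*, a remodeler found at enhancers in ES cells, had a log fold change of −0.16 and overlapping groups.

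*Chd1*, which binds methylated lysine 4 of histone H3, and *Chd4*, the ATPase of NuRD, had several probes that differed among themselves. The 4 *Chd1* probes had log fold changes of 0.11, −0.13, −0.13 and 0.17, and those of the 3 *Chd4* probes were 0.39, 0.19 and −0.07. In both genes the cel-239b replicate 1 array stood away from the other controls on some probes. *Chd4* probe 6110193 read 8.26 on it and 7.14 and 7.36 on the others, against 8.11, 7.82 and 7.99 with miR-294. Without that array, *Chd4* probes 6110193 and 6560682 were called higher (log fold changes 0.73 and 0.34, adjusted *p* = 0.0045 and 0.012 by limma), *Chd1* probe 7400747 was called higher (0.21, adjusted *p* = 0.038 by limma, and 0.039 with array weights and 0.048 on variance-stabilised signals with all arrays), and the median over the CHD class moved from −0.13 to 0.03.

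The histone demethylases had 6 probes higher (33.3%) and 2 lower (11.1%) of 18 tested, beside 16% and 16.3% of all tested probes, and a median log fold change of 0.14. The 6 higher probes came from 3 of 10 tested genes. The median was 0.03 on variance-stabilised signals and at its lowest 0.06 without 1 array (cel-239b replicate 3), and whether the class differed from other genes was not tested. By gene, *Jmjd1a*, *Jarid1b* and *Jmjd5* were upregulated, *Jmjd2b* was downregulated and 6 tested genes were not called. *Jmjd1a* (now *Kdm3a*) removes mono- and dimethyl groups from lysine 9 of histone H3 and is known for its work in ES cell self-renewal. All 3 of its probes were called. Probe 3060672 read 9.65, 9.56 and 9.59 with cel-239b and 10.06, 10.01 and 10.01 with miR-294 (log fold change 0.43 ± 0.05, adjusted *p* = 0.0015 by limma). The other 2 rose by 0.31 and 0.24, and on each the lowest miR-294 array lay above the highest cel-239b array.

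*Jarid1b* (now *Kdm5b*), which removes methyl groups from lysine 4 of histone H3, was upregulated on both tested probes. Probe 4260066 read 9.62, 9.58 and 9.56 against 9.89, 9.87 and 9.93 (log fold change 0.31 ± 0.05, adjusted *p* = 0.0048 by limma). Probe 5870300 read 6.82, 6.82 and 6.85 against 7.15, 7.03 and 7.02 (log fold change 0.24), and its call was lost without cel-239b replicate 2 (adjusted *p* = 0.060 by limma), without miR-294 replicate 1 (adjusted *p* = 0.055 by limma) and on variance-stabilised signals (log fold change 0.09, adjusted *p* = 0.060 by limma). *Jarid1a* had a log fold change of 0.18 with a standard error of 0.25, and *Jarid1c* and *Jarid1d* had no tested probe. *Jmjd5* (now *Kdm8*) was higher on probe 6420747, at 7.61, 7.47 and 7.53 with miR-294 over 7.29, 7.20 and 7.13 (log fold change 0.33, adjusted *p* = 0.0095 by limma; 0.14 on variance-stabilised signals), while probe 4920280, detected on 3 arrays, was called only without miR-294 replicate 1 (0.41, adjusted *p* = 0.047 by limma).

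*Jmjd2b* (now *Kdm4b*) removes methyl groups from lysine 9 of histone H3, as do its relatives *Jmjd2a* and *Jmjd2c*. It was the one gene of the JMJD and JARID1 names that fell. Probe 1980521 read 9.88, 9.87 and 9.73 with cel-239b and 9.32, 9.29 and 9.26 with miR-294 (log fold change −0.54 ± 0.06, adjusted *p* = 0.0011 by limma), and probe 1690402, detected on 5 arrays, changed by −0.55, or by −0.12 on variance-stabilised signals. *Jmjd2c*, which has been tied to *Nanog* regulation, averaged 9.01 ± 0.0238 (SD, n = 3) against 8.92 ± 0.085 (SD, n = 3) and was not called (adjusted *p* = 0.29 by limma). Neither probe of *Jmjd2a* was called. *Jmjd3* (now *Kdm6b*), a demethylase of lysine 27 of histone H3, had 3 tested probes with log fold changes of −0.15, 0.13 and −0.11, none of them called.

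The histone deacetylases had 4 probes lower, of 3 genes, and none higher of 11 tested, beside 16.3% and 16% of all tested probes, and a median log fold change of −0.21 (−0.10 on variance-stabilised signals). All 4 called probes belonged to class IIa, the deacetylases that shuttle between cytoplasm and nucleus and bind MEF2 factors, where each of the 3 tested genes was downregulated. *Hdac5* probe 1820551 fell from 9.99, 10.13 and 10.14 to 9.67, 9.63 and 9.62 (log fold change −0.45 ± 0.06, adjusted *p* = 0.0021 by limma). *Hdac5* probe 7570050 fell from 8.60, 8.58 and 8.60 to 8.33, 8.24 and 8.31 (log fold change −0.30; −0.19 on variance-stabilised signals). The third *Hdac5* probe, 3290014, changed by −0.19 with overlapping groups, and passed without miR-294 replicate 1 (−0.30, adjusted *p* = 0.036 by limma).

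*Hdac7* read 6.25, 6.42 and 6.29 with cel-239b and 5.97, 5.81 and 5.68 with miR-294 (log fold change −0.50 ± 0.09, adjusted *p* = 0.0058 by limma). *Hdac4* read 8.05, 8.50 and 8.16 against 7.86, 7.79 and 7.85 (log fold change −0.40 ± 0.11, adjusted *p* = 0.031 by limma). The groups did not overlap for either gene. The *Hdac4* call was lost without cel-239b replicate 3 or without miR-294 replicate 1, 2 or 3 (adjusted *p* = 0.062, 0.068, 0.084 and 0.070 by limma), and on variance-stabilised signals *Hdac7* changed by −0.11 and *Hdac4* by −0.23, both still called.

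The class I deacetylases, among them Hdac2 of the NuRD, Sin3 and CoREST complexes and Hdac3 of the NCoR and SMRT complexes, were not called on any of 4 tested probes. *Hdac2* probe 3780092 read 12.54, 12.57 and 12.58 with cel-239b and 12.41, 12.48 and 12.40 with miR-294, lower on every array but with a log fold change of −0.14 and an adjusted *p* of 0.089 by limma. It was called on variance-stabilised signals (adjusted *p* = 0.014 by limma). *Hdac3* likewise did not overlap, at 10.32, 10.25 and 10.27 against 10.20, 10.22 and 10.16 (log fold change −0.09, adjusted *p* = 0.25 by limma). *Hdac8* was the single HDAC probe above 0 (log fold change 0.21, adjusted *p* = 0.064 by limma), and it passed without miR-294 replicate 2 (0.27, adjusted *p* = 0.037 by limma) and with median scaling (0.23, adjusted *p* = 0.038 by limma). *Hdac6* and *Hdac10*, of class IIb, were not called, and *Hdac9* and *Hdac11* had no tested probe. Whether class IIa differed from class I was not tested.

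All 7 sirtuins were measured, and 1 rose and 1 fell. On 10 tested probes this was 10% in each direction, beside 16% higher and 16.3% lower of all tested probes. *Sirt1*, the nuclear sirtuin that deacetylates p53 among other proteins, read 10.37, 10.29 and 10.31 with cel-239b and 10.77, 10.90 and 10.74 with miR-294. This gave a log fold change of 0.48 ± 0.06 (adjusted *p* = 0.0017 by limma), a 1.40-fold increase, and lay between 0.44 and 0.53 under all alternatives. *Sirt4*, a mitochondrial sirtuin, read 7.47, 7.65 and 7.81 against 7.17, 7.34 and 7.17 (log fold change −0.41 ± 0.10, adjusted *p* = 0.017 by limma). Its call was lost without cel-239b replicate 2, miR-294 replicate 1 or miR-294 replicate 3 (adjusted *p* = 0.052, 0.055 and 0.054 by limma), and its change was −0.18 on variance-stabilised signals. *Sirt6*, which acts on histone H3 and is known in ES cells for restraining *Tet* genes, had 3 probes at −0.01, 0.03 and 0.23, none called, and the sign of the first 2 flipped under some alternatives. *Sirt7* spanned 10.38 to 10.44 with cel-239b and 10.35 to 10.47 with miR-294, and the groups overlapped.

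Of the SETD methyltransferases, *Setd1b*, *Setd6* and *Setdb1* were upregulated and *Setd7* was downregulated, with 4 probes higher and 2 lower of 18, beside 16% and 16.3% of all tested probes, and a median log fold change of 0.00. These counts rested on single arrays. The higher count was 1 without cel-239b replicate 1, cel-239b replicate 2 or miR-294 replicate 2, and 2 without miR-294 replicate 1, while the lower count was 0 without cel-239b replicate 2 or 3, and 1 without cel-239b replicate 1 or miR-294 replicate 1. *Setd7*, a monomethyltransferase of lysine 4 of histone H3, had 2 tested probes, both called lower. Probe 4480411 read 7.44, 7.71 and 7.76 with cel-239b and 6.96, 7.21 and 7.31 with miR-294 (log fold change −0.48 ± 0.12, adjusted *p* = 0.020 by limma). Probe 4670059 was detected on all cel-239b arrays and not well above background on any miR-294 array, and was at least 1.11-fold lower (adjusted *p* = 0.0098 by limma). It too passed the filter only through the cel-239b group, and is no support for the first, and it measured 1.06-fold lower on variance-stabilised signals. The first call was lost without cel-239b replicate 2, cel-239b replicate 3 or miR-294 replicate 1 (adjusted *p* = 0.066, 0.072 and 0.052 by limma), and on variance-stabilised signals the changes were −0.21 and −0.09, the second not called (adjusted *p* = 0.061 by limma).

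*Setd6*, which methylates non-histone proteins such as RelA, rose on both probes. Probe 6840598 read 9.17, 9.17 and 9.20 against 9.52, 9.44 and 9.43 (log fold change 0.28 ± 0.05, adjusted *p* = 0.0083 by limma). Probe 5090195 rose by 0.19 (adjusted *p* = 0.042 by limma), a call that was lost without any single array other than cel-239b replicate 3 (adjusted *p* = 0.092 and 0.11 without cel-239b replicates 1 and 2, and 0.092, 0.084 and 0.11 without miR-294 replicates 1, 2 and 3, by limma).

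*Setdb1*, the methyltransferase of lysine 9 of histone H3 that silences retroviral elements in ES cells, read 9.71, 9.76 and 9.71 with cel-239b and 9.97, 9.96 and 9.88 with miR-294 (log fold change 0.21 ± 0.06, adjusted *p* = 0.025 by limma). *Setd1b*, a catalytic subunit of a COMPASS complex, read 10.27, 10.32 and 10.32 against 10.43, 10.74 and 10.59 (log fold change 0.29 ± 0.08, adjusted *p* = 0.035 by limma). The groups did not overlap for either gene, but neither call withstood the loss of most single arrays. That of *Setdb1* was lost without any cel-239b array or without miR-294 replicate 1 or 2 (adjusted *p* = 0.052, 0.054, 0.075, 0.076 and 0.076 by limma), and that of *Setd1b* without any cel-239b array or without miR-294 replicate 2 or 3 (0.074, 0.080, 0.084, 0.083 and 0.084 by limma). *Setd1a*, the paralogue of *Setd1b*, had a log fold change of 0.02, and *Setd2*, the methyltransferase of lysine 36 of histone H3, was not called on any of its 3 probes, of which 7330528 passed without miR-294 replicate 3 (0.33, adjusted *p* = 0.025 by limma).

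The MLL family was lower on 3 of its 4 tested probes, for 2 of 3 genes, beside 16.3% of all tested probes, with a median log fold change of −0.57. *Mll1* (now *Kmt2a*), a methyltransferase of lysine 4 of histone H3 that maintains *Hox* gene expression, fell on both probes. Probe 2650672 read 10.27, 10.47 and 10.37 with cel-239b and 9.62, 9.79 and 9.97 with miR-294 (log fold change −0.58 ± 0.10, adjusted *p* = 0.0048 by limma). Probe 2100364 read 8.34, 8.49 and 8.66 against 7.82, 8.03 and 7.93 (log fold change −0.57 ± 0.09, adjusted *p* = 0.0045 by limma), and −0.34 on variance-stabilised signals.

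*Mll5* (now *Kmt2e*), a divergent member of the family, read 7.69, 7.20 and 7.46 with cel-239b and 6.66, 6.61 and 6.98 with miR-294. This was a log fold change of −0.71 ± 0.14 (adjusted *p* = 0.0098 by limma; −0.27 on variance-stabilised signals). *Mll3* (now *Kmt2c*), which works with UTX at enhancers, read 9.28, 9.07 and 9.19 against 8.92, 9.03 and 9.28 and was not called (adjusted *p* = 0.49 by limma). The probes named MLL2 were not detected on enough arrays to be tested, and that name is shared by *Kmt2b* and *Kmt2d* in RefSeq.

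**Figure D3:**
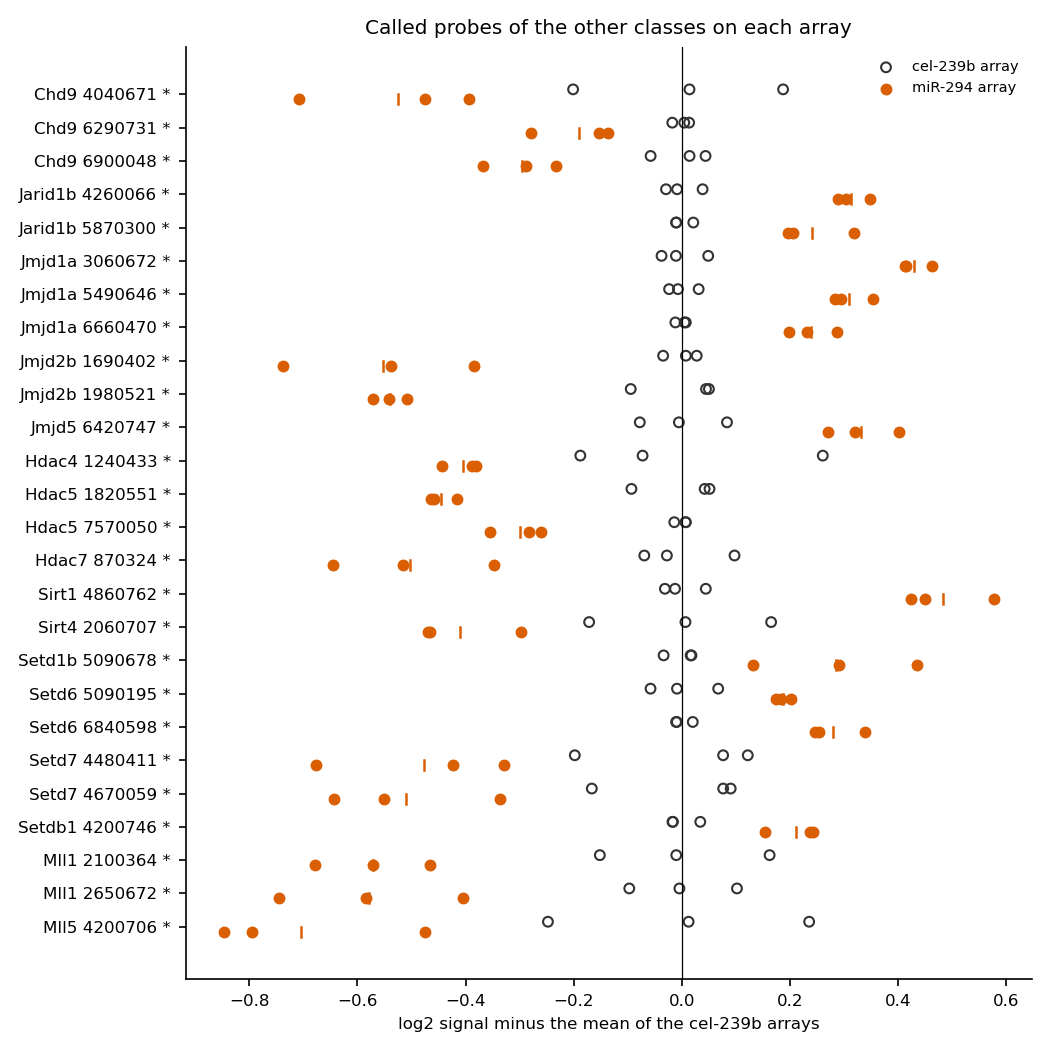
Normalised log2 signal of the 26 called probes outside the SMARC class on each array, minus the mean of the 3 cel-239b arrays (open circles, cel-239b; filled circles, miR-294; tick, miR-294 mean). The groups do not overlap on any of them, and the cel-239b arrays of *Jmjd1a* and *Jarid1b* lie closer together than those of *Hdac4*, *Mll5* and *Setd7*.

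Genes with more than 1 tested probe gave a check within the same RNA, although probes of a gene are not replicates. Leaving out the 2 probes detected with cel-239b alone, whose direction the filter fixed, there were 20 such genes, of which 13 (65%) had all probes on the same side of 0, beside 72.3% of all 2913 such genes on the array. Of the 9 that had a called probe, all 9 had every tested probe on one side, and in 6 (66.7%) every tested probe was called, beside 84.9% and 35.3% of all 1345 such genes. These shares were not compared by a test. These 6 were *Chd9*, *Jarid1b*, *Jmjd1a*, *Jmjd2b*, *Mll1* and *Setd6*. No gene was called in both directions.

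The 61 tested probes that were not called had log fold changes between −0.27 and 0.39, with a median size of 0.15, and on 46 of them, or 75.4%, the groups overlapped, beside 76.8% of all tested probes that were not called. A further 43 chromatin probes were detected on no array and 3 on 1 or 2 arrays. The 9 genes without a tested probe were *Chd5*, *Hdac9*, *Hdac11*, *Jarid1c*, *Jarid1d*, *Jmjd1b*, *Jmjd2d*, *Jmjd4* and *Mll2*. A probe that passed through the group in which it was high had to differ, and this held for the 2 probes detected with cel-239b alone, *Chd9* 4040671 and *Setd7* 4670059. The called probes of *Smarcc2* (3 cel-239b arrays and 1 miR-294 array), *Jmjd2b* 1690402 (3 and 2) and *Smarcd3* (2 and 3) passed partly through the group in which they were high. They stay in the counts above.

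**Figure D4:**
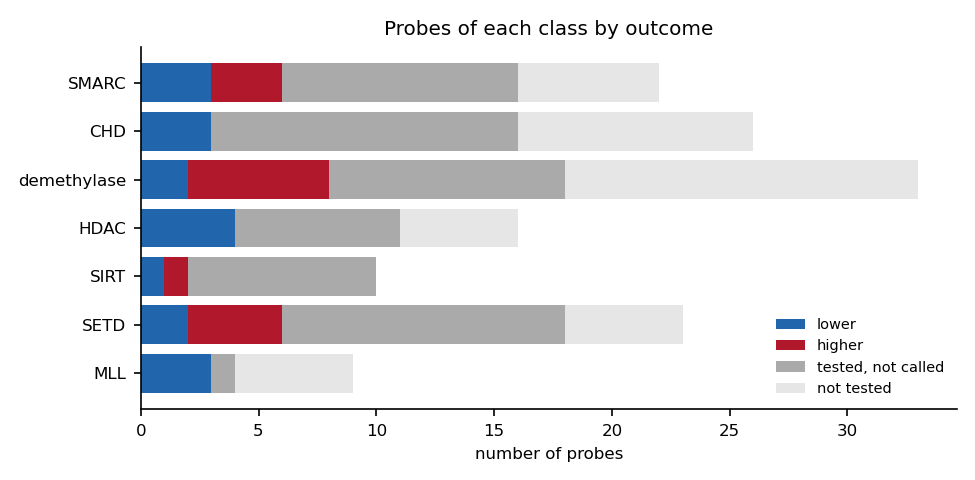
Number of probes in each class that were lower, higher, tested without a call, or not tested. Demethylases hold the most higher probes (6), HDAC the most lower ones (4), and the CHD, HDAC and MLL bars hold no higher probe.

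The chromatin genes act with partners whose names the rule did not take. Of 95 partner genes listed by complex, 74 had a tested probe, 13 were called higher and 16 lower, with 1 among both, and 46 were not called. Their median log fold change was 0.02. These are 17.6% and 21.6% of the tested partner genes, beside the 18.1% and 19% of all tested genes given above. Without cel-239b replicate 2 or miR-294 replicate 1, the lower count was 9. Of the 34 called partner probes, 16 kept the call without each array in turn. The other 18 lost it without at least 1 array, at adjusted *p* up to 0.13 by limma (*Sin3b* without cel-239b replicate 2), and each of the 6 arrays decided at least 1 call. They were the probes of *Aof1*, *Arid1b*, *Arid2*, *Ehmt2*, *Gcn5l2*, *Hat1*, *Inoc1*, *Men1*, *Ncor1*, *Phf10*, *Rbbp4*, *Sap18* and *Sin3b*, *Mta3* probe 630678, *Rbbp7* probe 2650598 and *Ruvbl1* probes 610609 and 6110369.

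BAF partners were again mixed. *Actl6a*, the actin-related subunit BAF53a of progenitor and ES cell complexes, rose on probe 2970519 from 11.06, 11.08 and 11.22 to 11.51, 11.51 and 11.59 (log fold change 0.42, adjusted *p* = 0.0033 by limma), while probe 240021 was not called (0.03). *Bcl7a* fell from 9.22, 9.29 and 9.16 to 8.55, 8.57 and 8.64 (log fold change −0.63, adjusted *p* = 5.7e-04 by limma). *Phf10* and *Bcl7c* were also higher, and *Arid1b* and *Arid2*, the DNA-binding subunits of BAF and PBAF, also lower. None of the 4 tested partners of ISWI was called, beside 37% of all tested genes called in either direction.

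COMPASS partners, the proteins that MLL and SETD1 enzymes need for methylation of lysine 4, had 3 of 8 tested genes higher and none lower, beside 18.1% and 19% of all tested genes. *Rbbp5* rose from 8.57, 8.65 and 8.53 to 9.12, 9.07 and 9.02 (log fold change 0.49, adjusted *p* = 0.0014 by limma). *Wdr5* rose by 0.38 and *Men1* by 0.32. The lower *Mll1* and the higher *Rbbp5*, *Wdr5* and *Men1* were thus measured in the same arrays.

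Among methyltransferases outside the SETD and MLL names, 4 of 14 tested genes were lower and none higher, beside 19% and 18.1% of all tested genes. *Suv39h1*, which trimethylates lysine 9 of histone H3 in heterochromatin, had the largest change, from a mean of 7.96 to 7.17, 6.97 and 7.07 (log fold change −0.88 ± 0.07, adjusted *p* = 2.7e-04 by limma, *B* = 5.04). *Ash1l* (−0.64), *Whsc1* (−0.44 and −0.32 on 2 probes) and *Ehmt2* (−0.23) were the other 3. The *Ash1l* probe, detected on 5 arrays, lay near the detection limit with miR-294. The Polycomb genes *Ezh2*, *Suz12* and *Eed* were not called, with log fold changes of −0.01 for *Suz12* and 0.10 for *Eed*, and the 2 *Ezh2* probes at 0.38 and 0.08 had overlapping groups.

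NuRD, Sin3 and CoREST partners had 3 higher and 6 lower genes of 14, beside 18.1% and 19% of all tested genes. *Mbd3* (0.36) and *Rbbp4* (0.42 on both called probes) were higher, and *Mta1* (−0.38) and *Mta3* (−0.40 on both called probes) were lower, as were *Sin3b*, *Sap18* and *Ncor1*. *Rbbp7* was counted in both directions, with probe 2650598 at 0.44 and probe 4760131 at −0.28. Its other tested probes, 670711 and 6590445, were at 0.33 and 0.42 and were not called. In the INO80, SRCAP and TIP60 group *Ruvbl1* rose on 3 probes by 0.26 to 0.46 and *Inoc1* fell by 0.33. *Phf2* (−0.73), *Mina* (0.30) and *Aof1* (0.23) were called among demethylases with other names, and *Aof2* (LSD1) was not (−0.06). The *Phf2* probe, detected on 5 arrays, lay near the detection limit with miR-294, so the size of its change is uncertain. Of the acetyltransferases *Hat1* rose by 0.18 and *Gcn5l2* fell by 0.23.

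**Figure D5:**
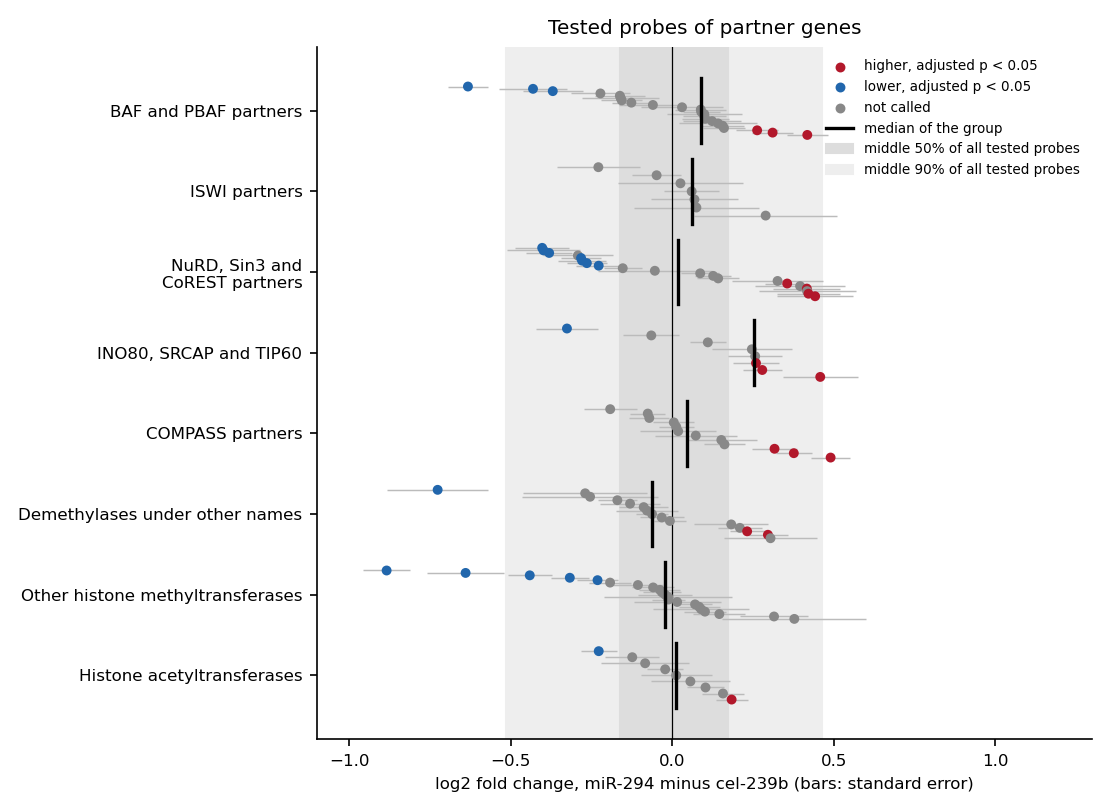
Log2 fold change (miR-294 minus cel-239b, with its standard error) of the tested probes of partner genes in 8 groups, coloured by call, with the group median as a black line and grey bands for the middle 50% and 90% of all tested probes. *Suv39h1* and *Phf2* lie furthest to the left, and no called probe of the COMPASS group lies below 0.

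The promoters of the chromatin genes were searched for a pair of short motifs on both strands, in windows of 250 bases before and 50 after the gene start from RefSeq (GRCm38.p6). Windows were found for 57 of the 71 genes, 75 windows in all. The E-box CACGTG, which Myc and Max and other basic helix-loop-helix factors can bind, was in 3 of the 75 windows (4%) and in 7.15% of all 32851 promoters of this length. Of the 3 windows, 1 belongs to *Sirt1*, which holds the motif more than once, and 1 to *Hdac5*, the first a gene that rose and the second a gene that fell, and the third to *Jmjd2c*, which was not called. Stretches of 30 bases around the motif are printed for the called genes, with the E-box in capitals.
Sirt1, chr10:63339133-63339162, minus strand: gcggcgcccggcCACGTGacccggcgtgtt
Sirt1, chr10:63339061-63339090, minus strand: ggaggggcgggtCACGTGacggggtttaaa
Hdac5, chr11:102230152-102230181, minus strand: tcggggtcgggtCACGTGacgagagtgacg
In *Sirt1* the motifs begin 115 and 43 bases before the gene start, and in *Hdac5* 3 bases after it. The GC box GGGCGG was in 65.3% of the chromatin windows and 35.7% of all promoters, and the median GC content of the windows was 61.7% and 52.7%. It was in 10 of the 11 windows of upregulated genes, 8 of the 14 of downregulated genes and 63.4% of those of tested genes that were not called. These matches describe the letters of the windows and are no evidence of binding.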

How the data were processed

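Total RNA was hybridised to Illumina MouseWG-6 v2.0 arrays, 1 array per sample. Per the file headers, the authors exported the signal intensity of each probe from GenomeStudio 1.0.6 as the mean over its beads, with no normalisation and no background subtraction. The deposited detection score is a fraction from 0 to 1. The deposited standard deviations over beads (10 to 155 beads per probe) served the variance-stabilising alternative, and a further 24 columns were not used.

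R 4.3.3 and limma 3.58.1 were used for normexp background correction from the detection *p*-values (1 minus the score), an offset of 16, quantile normalisation and log2 transformation. The 14621 probes whose detection score passed 0.99 on 3 or more arrays entered a linear model of group, with empirical Bayes moderation. Benjamini-Hochberg adjustment covered all of them, and the *B*-statistic took a prior share of 0.01. A gene was called where any tested probe was called. The number of arrays limits the precision. In a test on simulated data of these 14621 probes, 100 probes were given a log2 change of 0.5 and 100 a change of 1. The model called 64% and 95% of them. Far fewer probes were changed there than the 32.3% called on the real arrays, so these rates need not hold for the real arrays.

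The members, the partner and marker lists and the rule for named probes were chosen with earlier results of these data known. The rule took probes with a *B*-statistic above 5, the 3 largest called increases and decreases of each class, the alternative BAF subunits, 13 genes known for work in ES cells, and the largest called changes of each partner group. Other probes are named where a count needed them, chosen after their values were seen. Names were matched to RefSeq (53 as current symbols, 17 as synonyms, 1 to several symbols). Alternatives were other background, normalisation, transformation, filter and threshold settings, array weights, the replicate number as a block, 1 probe per gene, and each array left out in turn. Those for the partner genes, and the counts without probes detected in 1 group alone, were chosen after seeing the data.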

Additional observations from a re-analysis of the deposited data

How the results depend on the processing

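No called probe changed sign under any alternative. Of the 29 called probes named by the rule, 20 kept an adjusted *p* below 0.05 under every alternative in which they were fitted, and 9 lost it under at least 1. Over all 32 called members, 9 lost the call without 1 array and 15 probes that were not called passed without 1 array. At an adjusted *p* below 0.01 there were 8 higher and 11 lower probes, and with a 1.5-fold limit 2 and 2. The number with a *B*-statistic above 5 was 0 with cyclic loess, 0 with probes detected on at least 1 array, 0 without a detection filter and 3 on variance-stabilised signals (*Smarca1*, *Jmjd1a* and *Jmjd2b*). The cause was not tested. Of 224 counts of called probes by class and alternative, 27 moved by more than 1.5 times, among them those of the SETD class, from 1 to 4 higher and 0 to 2 lower without 1 array. Partner genes called lower numbered 10 without a detection filter.

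The class medians of the log fold change moved as follows. That of the demethylases was 0.0883 without background correction, 0.0327 on variance-stabilised signals, 0.117 with array weights and 0.0879 with 1 probe per gene. That of the HDACs was −0.135 without background correction, −0.097 on variance-stabilised signals and −0.246 with detection on all 6 arrays. The SMARC median was 0.0316 on variance-stabilised signals and 0.122 with detection on at least 1 array, the CHD median −0.0731 on variance-stabilised signals and −0.0593 with array weights, and the MLL median −0.305 on variance-stabilised signals. Over the fits that leave out 1 array, the higher count ranged from 9 to 15, the lower count from 13 to 17, the number with *B* above 5 from 0 to 1, the partner genes called lower from 9 to 18, and the medians from −0.195 to 0.0283 (CHD), 0.0616 to 0.140 (demethylases), −0.240 to −0.143 (HDAC) and −0.0133 to 0.0640 (SETD).

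Of the 93 tested probes, 13 changed sign under 1 or more alternatives, and none of the 13 was called in a fit that turned it. Those named by the rule were the following. *Sirt6* probe 3870682 was at 0.0069 with median scaling, at 0.00091 with array weights and between −0.0720 and 0.0250 without 1 array. *Sirt6* probe 5870082 ranged from −0.0501 to 0.0903 without 1 array, *Smarce1* probe 60563 at −0.0151 with cyclic loess, −0.0166 with array weights and from −0.0588 to 0.0679 without 1 array, and *Chd1* probes 2750682 and 5690754 ranged from −0.260 to 0.0845 and from −0.284 to 0.0283 without 1 array, positive without cel-239b replicate 1.

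Whether the replicate numbers pair the arrays was not tested. The deviations of same-numbered arrays from their group means correlated at 0.139, −0.0777 and 0.141. Those of differently numbered arrays correlated at −0.204 to 0.0785. In a fit with replicate block, 14 probes were higher and 17 lower, and 30 of the 32 calls were shared. Probes near the detection limit, such as those of *Smarcc2*, *Smarcd3*, *Chd9*, *Ash1l* and *Phf2*, have the least certain sizes.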
